A study of Mus musculus with 9 samples.

Results

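The transcription factor p53 (gene Trp53) and 9 genes grouped with it were followed in mouse embryonic fibroblasts (MEFs) under hyperosmotic stress. The 9, taken as its regulators or targets, were Mdm2, Mdm4, Ccng1, Cdkn1a, Plk2, Sesn1, Zmat3, Phlda3 and Trp53inp1. The genes were taken by symbol from the deposited table, where all 10 were listed among 35275 genes, by a rule that uses their names alone. MEFs of strain C57Bl/6, called wild type in the study's text, stayed in iso-osmolar medium (300 mOsm) or were exposed for 3 h to medium brought to 500 mOsm with 200 mM sucrose or to 600 mOsm with 300 mM sucrose. Each treatment was sequenced as 3 poly-A libraries, 9 in all, and all groups shared the same growth medium with serum. The comparisons ask how the response to a lower and a higher intensity of the same stress differs. How the MEF line was derived and whether it was immortalized was not given in the sources used here.

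p53 is kept at a low level by Mdm2, a ubiquitin ligase that marks it for degradation, and by Mdm4, a relative of Mdm2 that binds p53 and blocks its activation domain. When DNA is damaged or cells are stressed, p53 escapes this control and switches on genes that stop the cell cycle, among them Cdkn1a, which encodes the cyclin-dependent kinase inhibitor p21. Mdm2 is itself a p53 target, so that p53 activity raises the level of its own inhibitor, and fibroblasts are a classical cell type for the study of this loop. Protein levels, phosphorylation and DNA binding of p53 were not measured here. The word target stands for what a gene is known for, not for a dependence on p53 measured in these cells.

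Reads counted on genes came to between 21716042 and 26740832 per library, and 3 counts, taken as the smallest signal, corresponded to 0.112 to 0.138 CPM (reads of a gene per 1000000 reads on all genes) before TMM scaling, a floor that covers counting error only. Levels are given as CPM after TMM scaling, and levels of the 10 genes are ranked against each other only as FPKM, which also divides by gene length. Marker sums are in CPM and the genes around Trp53 in counts, neither of which is divided by gene length. Of 10 fibroblast markers, 9 were detected in every library and only Dcn was at or near 0. Summed epithelial markers lay between 0.0819 and 0.41 CPM in iso-osmolar medium, between 3.85 and 4.84 CPM at 500 mOsm, where Cdh1 made up most of the sum, and between 0.309 and 0.544 CPM at 600 mOsm. Summed endothelial markers lay at 0.778 to 0.9, 11.5 to 12.9 and 2.01 to 3.18 CPM in the same order, almost all of the sum at 500 mOsm being Pecam1 while Tie1 was at 0 throughout. Summed leukocyte markers, mostly Csf1r, lay at 12.2 to 12.9, 17.4 to 19.6 and 11.5 to 12.2 CPM. The part of these markers in the results that follow was not tested.

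Trp53 itself gave next to no reads. Its row on chromosome 11 (mm10, chr11:69580359-69591873, plus strand) held 1, 2 and 0 counts in the iso-osmolar libraries, 1, 0 and 2 counts at 500 mOsm and 2, 2 and 2 counts at 600 mOsm. No library reached the floor of 3 counts, so that Trp53, a gene expressed in most cultured fibroblasts, was under 0.138 CPM in every library of these cells called wild type, and no fold change was computed. Its mean FPKM was 0.013 without added sucrose, 0.012 at 500 mOsm and 0.0253 at 600 mOsm. The pseudogene Trp53-ps on chromosome 17 held 0 counts in all libraries.

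The genes next to Trp53 were at the floor as well, a stretch that was looked at after these values were seen. From Efnb3 to Sat2, 6 neighbouring genes on 69.8 kb (chr11:69554092-69623870) held at most 2 counts in any library: Efnb3, Atp1b2, Shbg and Sat2 were listed at 0 in all 9, Wrap53, whose start lies 104 bases from that of Trp53, held at most 1, and Trp53 held at most 2. Farther out, Fxr2, a relative of the fragile X protein, held 0, 2 and 1 counts in iso-osmolar medium, 4, 1 and 6 at 500 mOsm and 15, 26 and 24 at 600 mOsm. Dnah2, an axonemal dynein gene on the other side, held 0 counts in the iso-osmolar libraries, 21, 31 and 18 at 500 mOsm and 32, 25 and 37 at 600 mOsm. Beyond Sox15, broadly used genes were read in large numbers, with 408 to 566 counts for Mpdu1, 19397 to 23559 for the translation initiation factor Eif4a1 and 20263 to 26712 for Polr2a, the large subunit of RNA polymerase II. Other genes beyond Sox15 held few, among them Cd68 with 21 to 47 counts, Tnfsf12 with 4 to 16 and Tnfsf13 with 0 to 4. The counts are of RNA, and whether the DNA of the stretch is intact was not measured.

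**Figure D1:**
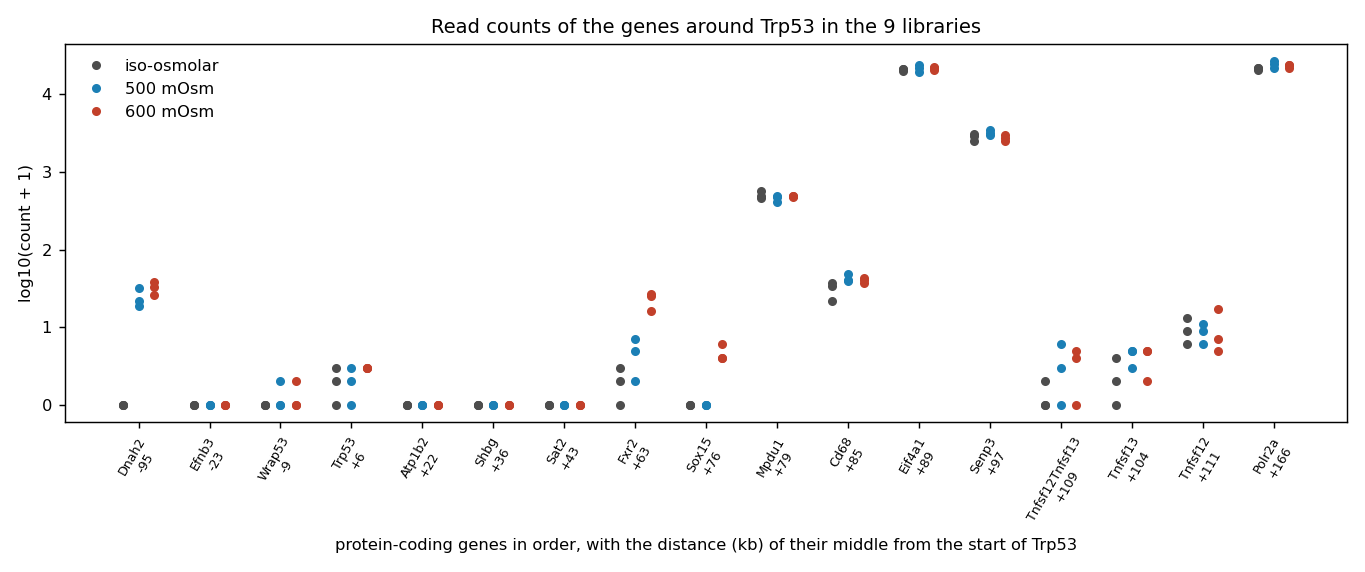
Read counts, as log10(count + 1), of the protein-coding genes around Trp53, in chromosomal order with the distance of each gene's middle from the start of Trp53 in kb, and 1 point per library coloured by treatment. From Efnb3 to Sat2 no gene exceeds 2 counts in any of the 9 libraries, while Mpdu1, Eif4a1, Senp3 and Polr2a hold 408 or more.

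Paralogues of p53 were scarce too. Trp63 held 9 to 26 counts per library and did not pass the test in any comparison, and Trp73 held 0 to 7 counts and was too low to be tested. Cdkn2a, among whose products is p19Arf, which binds Mdm2 and frees p53, was abundant, with 5269 to 7995 counts per library. Against iso-osmolar medium Cdkn2a rose by 0.24 on the log2 scale at 600 mOsm (SE 0.0541, adjusted p = 0.0046, edgeR quasi-likelihood test). These counts are of the whole gene and do not tell the transcript for p19Arf from its others.

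Of the 10 genes, 8 passed the filter on low counts and were tested among 13082 genes, and Trp53 and Trp53inp1 did not pass it. At 500 mOsm against iso-osmolar medium, 2 of the 8 were higher (Sesn1 and Cdkn1a) and 2 were lower (Mdm4 and Phlda3), where 13.2% of all genes tested were higher and 14.8% lower. At 600 mOsm against iso-osmolar medium, 0 of the 8 were higher and 5 were lower (Cdkn1a, Mdm2, Mdm4, Zmat3 and Plk2), where 15.1% of all genes tested were higher and 20% lower. The 0 was also the count by edgeR at an unadjusted p under 0.05 and by DESeq2. Between 600 and 500 mOsm, 1 was higher (Phlda3) and 5 were lower (Cdkn1a, Mdm2, Sesn1, Zmat3 and Plk2), against 11.9% and 17.2% of all genes tested. The median log2 fold change of the 8 genes was 0.03, -0.33 and -0.24 in these 3 comparisons, and that of all genes tested lay between 0.0061 and 0.013. Per length, the order in iso-osmolar medium was Plk2 (mean 106 FPKM), Phlda3 (73.0), Mdm2 (11.7), Cdkn1a (8.46), Ccng1 (6.70), Zmat3 (5.57), Mdm4 (3.33) and Sesn1 (2.37), and the only neighbours in this order whose libraries overlapped were Ccng1 and Zmat3. Each pair of these comparisons shares 3 libraries, so they are not independent. In these bulk libraries, fewer cells that express a gene and less of its RNA per cell cannot be told apart. The labels do not say whether replicate libraries came from separate cultures, and p-values measure the spread between these libraries, which may be technical.

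**Figure D2:**
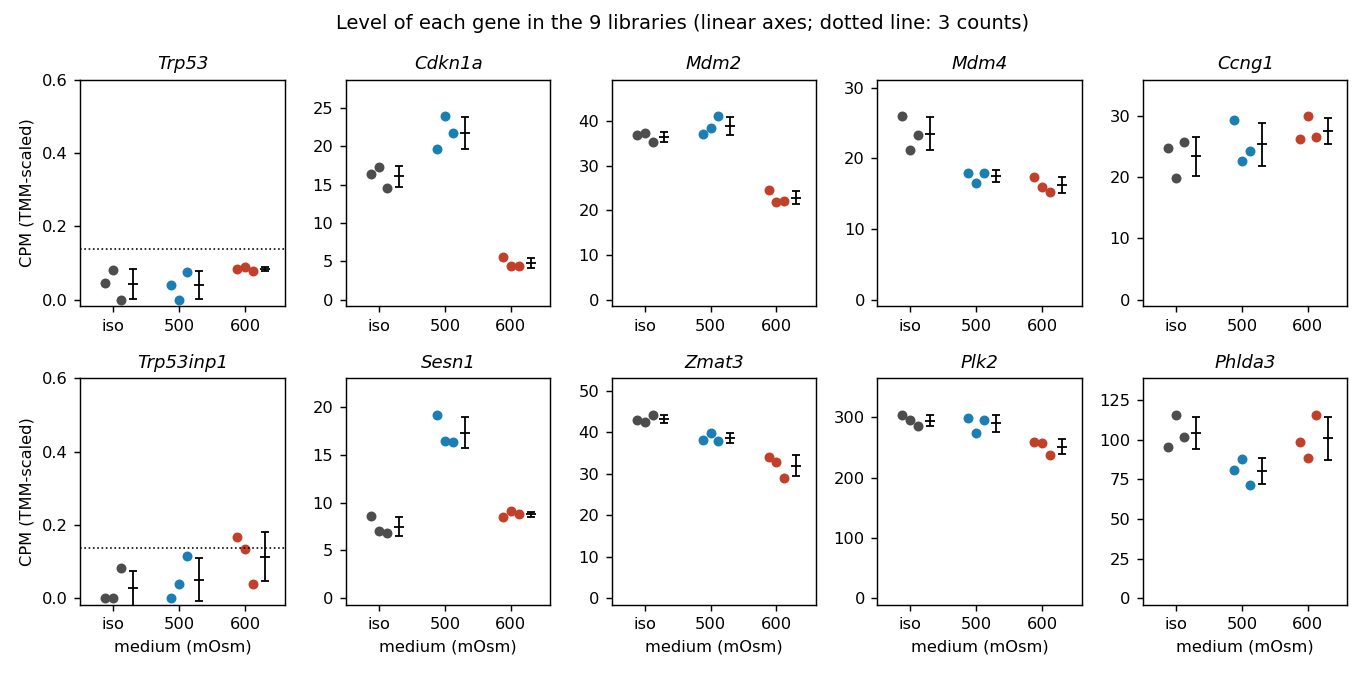
Level of each of the 10 genes in CPM (linear axes from 0), with 1 point per library and, beside them, the mean with its SD (n = 3) for iso-osmolar medium, 500 mOsm and 600 mOsm. The 600 mOsm libraries of Cdkn1a and Mdm2 lie below the other 6, and the 500 mOsm libraries of Sesn1 lie above the other 6, while Trp53 and Trp53inp1 stay near the 3-count line.

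Mdm2, the ligase of the feedback loop (chr10:117688888-117710758, minus strand), fell at 600 mOsm and did not pass the test at 500 mOsm. It was read at 36.8, 37.4 and 35.2 CPM in iso-osmolar medium, at 37.1, 38.4 and 41.0 CPM at 500 mOsm and at 24.6, 21.8 and 22.1 CPM at 600 mOsm. The 600 mOsm libraries lay below the other 6, which overlapped each other. Against iso-osmolar medium Mdm2 fell by 37.4% at 600 mOsm (log2 fold change -0.68, SE 0.0711, adjusted p = 1.44e-05), and against 500 mOsm it fell by 41.2% (log2 fold change -0.77, SE 0.0707, adjusted p = 5.52e-06). At 500 mOsm its log2 fold change against iso-osmolar medium was 0.09, with a 95% interval from -0.06 to 0.24 (adjusted p = 0.382).

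Mdm4, the binding inhibitor of p53 (chr1:132959484-133030561, minus strand), was lower at both intensities. Mdm4 levels were 25.96, 21.2 and 23.3 CPM in iso-osmolar medium, 18.0, 16.5 and 17.9 CPM at 500 mOsm and 17.4, 15.9 and 15.3 CPM at 600 mOsm. Every iso-osmolar library lay above the 6 stressed ones, whose groups overlapped each other. The gene fell by 25.6% at 500 mOsm (log2 fold change -0.43, SE 0.0902, adjusted p = 0.00308) and fell by 31.1% at 600 mOsm (log2 fold change -0.54, SE 0.0911, adjusted p = 0.000653). Between the intensities the log2 fold change was -0.11, with a 95% interval from -0.31 to 0.09. With a correction for GC content and gene length, added after the data were seen, the change at 600 mOsm against iso-osmolar medium was -0.30 (adjusted p = 0.0126) and the value between the intensities was 0.08. A pseudogene listed on this locus, RP23-393D20.3, held 2 to 9 counts per library, and no other gene overlapped any of the 10 in the table.

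The ratio of Mdm2 to Mdm4, both in FPKM, was 3.55 ± 0.404 (SD, n = 3) without added sucrose, 5.05 ± 0.328 at 500 mOsm and 3.20 ± 0.0865 at 600 mOsm. The 500 mOsm libraries, at 4.67 to 5.28, lay above all others, whereas iso-osmolar libraries (3.22 to 3.998) and 600 mOsm libraries (3.11 to 3.29) overlapped. The ratio was given no test of its own.

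Ccng1, which encodes cyclin G1, a p53 target that brings a phosphatase to Mdm2 (chr11:40748552-40755311, minus strand), did not pass the test in any of the 3 comparisons. Its CPM values were 24.7, 19.8 and 25.7 CPM in iso-osmolar medium, 29.4, 22.6 and 24.2 CPM at 500 mOsm and 26.2, 29.9 and 26.5 CPM at 600 mOsm. The 600 mOsm libraries lay just above the iso-osmolar ones, with a log2 fold change of 0.23 and a 95% interval from -0.02 to 0.49 (adjusted p = 0.14), and passed the test only without a low-count filter (0.24, adjusted p = 0.0499) and with the GC and length correction (0.28, adjusted p = 0.00957). Its paralogue Ccng2 rose by 1.63 on the log2 scale at 500 mOsm against iso-osmolar medium (adjusted p = 2.63e-05) and fell by 1.34 from 500 to 600 mOsm (adjusted p = 0.000127).

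Cdkn1a, the arrest gene of the group (chr17:29090979-29100722, plus strand), was higher at 500 mOsm and far lower at 600 mOsm. Cdkn1a levels were 16.3, 17.3 and 14.6 CPM in iso-osmolar medium, 19.7, 23.9 and 21.7 CPM at 500 mOsm and 5.57, 4.34 and 4.41 CPM at 600 mOsm. All 3 groups were apart from each other, in the order 500 mOsm, iso-osmolar, 600 mOsm. At 500 mOsm it rose 1.35-fold over iso-osmolar medium (log2 fold change 0.44, SE 0.108, adjusted p = 0.00847). At 600 mOsm it fell by 70.3% against iso-osmolar medium (log2 fold change -1.75, SE 0.123, adjusted p = 4.19e-07) and fell by 78.1% against 500 mOsm (log2 fold change -2.19, SE 0.121, adjusted p = 5.18e-08). Ordered from the lowest log2 fold change at 600 mOsm against iso-osmolar medium, Cdkn1a stood at rank 124 of the 13082 genes tested. In FPKM its mean was 8.46 ± 0.663 (SD, n = 3), 11.4 ± 1.04 and 2.48 ± 0.356 in the iso-osmolar, 500 mOsm and 600 mOsm groups. At 600 mOsm its libraries overlapped those of Mdm4 and of Sesn1 in FPKM. The paralogue Cdkn1b rose at 500 mOsm against iso-osmolar medium (log2 fold change 0.32, adjusted p = 0.00253). Cdkn1b did not pass the test at 600 mOsm against iso-osmolar medium or between the intensities, and Cdkn1c was too low to be tested.

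The Cdkn1a promoter is shown because it held the only p53 response element found in the promoter windows searched for these genes. RefSeq windows (assembly GRCm38.p6) of 300 bases, 250 before and 50 after an annotated start, were given for 8 of the 10 genes, 11 windows in all. Trp53inp1 and Zmat3 had no window, and sequence outside the windows, such as introns, was not searched. The p53 consensus, a pair of decamers of 20 bases in all, was searched with both cores intact and up to 2 mismatches elsewhere. It was found in 1 of the 11 windows and in 52 of 32851 windows of all genes (0.158%). A bare pair of cores in the form CATG, CATGNNNNNNCATG, reads the same on both strands and lies within the element of this window. The cores of the consensus may take other forms as well. This pair was in the same single window and in 234 of all windows (0.712%). The window is chr17:29090729-29091028 on the plus strand and follows 5′ to 3′, with the element in capitals, from base -51 to base -32 before the start and with 1 mismatch to the consensus.

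Cdkn1a: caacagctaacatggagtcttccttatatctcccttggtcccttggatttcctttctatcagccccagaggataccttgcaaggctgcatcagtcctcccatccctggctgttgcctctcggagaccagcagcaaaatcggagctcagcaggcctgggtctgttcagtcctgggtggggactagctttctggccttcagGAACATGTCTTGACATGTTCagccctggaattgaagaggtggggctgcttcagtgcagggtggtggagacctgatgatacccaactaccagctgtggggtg

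The start of this window is the start of Cdkn1a in the deposited table, and a window at a downstream start (position 29093769) held no such element. A match is a description of letters, and no binding was measured in these cells.

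Plk2, a polo-like kinase with a role in centriole duplication (chr13:110395044-110400844, plus strand), was the most abundant of the 10 per length, at 106 ± 3.56 FPKM (SD, n = 3) in iso-osmolar medium. Plk2 levels were 304, 295 and 285 CPM in iso-osmolar medium, 299, 274 and 296 CPM at 500 mOsm and 258, 258 and 238 CPM at 600 mOsm. The 600 mOsm libraries lay below the other 6. Plk2 fell by 14.7% at 600 mOsm against iso-osmolar medium (log2 fold change -0.23, SE 0.0517, adjusted p = 0.00442) and by 13.3% against 500 mOsm (log2 fold change -0.21, SE 0.0516, adjusted p = 0.00968). Among its paralogues Plk3 fell at 600 mOsm against iso-osmolar medium (log2 fold change -0.69, adjusted p = 4.21e-06) and against 500 mOsm (-0.56, adjusted p = 2.78e-05), while the mitotic kinase Plk1 rose at 500 mOsm (0.43, adjusted p = 1.89e-05) and at 600 mOsm (0.55, adjusted p = 2.61e-06).

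**Figure D3:**
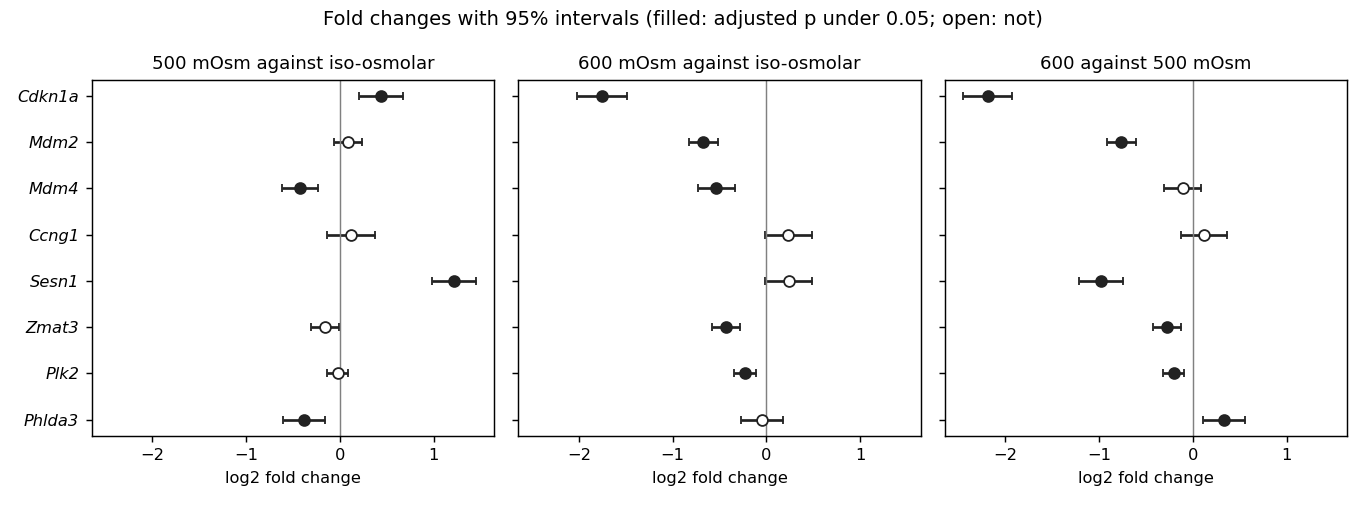
Log2 fold changes of the 8 tested genes with 95% intervals in the 3 comparisons, filled where the adjusted p was under 0.05. Sesn1 and Cdkn1a are right of 0 at 500 mOsm against iso-osmolar medium, and Cdkn1a is farthest left in both comparisons with 600 mOsm, at -1.75 and -2.19.

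Sesn1, a sestrin that restrains growth signalling through mTORC1 (chr10:41810574-41908424, plus strand), was raised at 500 mOsm. Sesn1 levels were 8.61, 7.05 and 6.79 CPM in iso-osmolar medium, 19.2, 16.5 and 16.3 CPM at 500 mOsm and 8.54, 9.09 and 8.78 CPM at 600 mOsm. The 500 mOsm libraries lay above the other 6, whose groups overlapped. The gene rose 2.32-fold at 500 mOsm (log2 fold change 1.21, SE 0.109, adjusted p = 3.17e-06), the largest rise among the 8 tested genes, and fell by 49.2% from 500 to 600 mOsm (log2 fold change -0.98, SE 0.107, adjusted p = 2.31e-05). At 600 mOsm against iso-osmolar medium its log2 fold change was 0.24, with a 95% interval from -0.01 to 0.48 (adjusted p = 0.127). Without iso-osmolar replicate 1 that value was 0.35 and passed the test (adjusted p = 0.044), as did that with the GC and length correction (0.30, adjusted p = 0.0423). Its paralogue Sesn2 fell at 500 mOsm against iso-osmolar medium (log2 fold change -0.68, adjusted p = 0.000233) and rose from 500 to 600 mOsm (0.47, adjusted p = 0.00443), and Sesn3 did not pass the test in any comparison.

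Zmat3, a zinc finger protein that binds RNA (chr3:32334796-32365678, minus strand), was lowest at 600 mOsm. Zmat3 levels were 42.9, 42.4 and 44.2 CPM in iso-osmolar medium, 38.2, 39.96 and 37.9 CPM at 500 mOsm and 34.0, 32.9 and 29.1 CPM at 600 mOsm. The 3 groups were apart from each other, in the order iso-osmolar, 500 mOsm, 600 mOsm. The gene fell by 25.9% at 600 mOsm against iso-osmolar medium (log2 fold change -0.43, SE 0.0681, adjusted p = 0.000389) and by 17.3% against 500 mOsm (log2 fold change -0.27, SE 0.0681, adjusted p = 0.00918), while at 500 mOsm against iso-osmolar medium its value of -0.16 did not pass the test (adjusted p = 0.103). With the correction for GC content and gene length, the change at 600 mOsm against iso-osmolar medium was -0.17 (adjusted p = 0.0483), and that between the intensities was -0.06 and no longer passed (adjusted p = 0.526).

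Phlda3, which competes with the kinase Akt for membrane lipids (chr1:135766119-135769136, plus strand), was lower at 500 mOsm than in the other 2 treatments. Phlda3 levels were 95.5, 116 and 102 CPM in iso-osmolar medium, 80.9, 88.1 and 71.5 CPM at 500 mOsm and 98.7, 88.6 and 116 CPM at 600 mOsm. The 500 mOsm libraries lay below the other 6, though the highest of them was within 1 CPM of the lowest 600 mOsm library. Phlda3 fell by 23.2% at 500 mOsm against iso-osmolar medium (log2 fold change -0.38, SE 0.102, adjusted p = 0.0137) and rose 1.26-fold from 500 to 600 mOsm (log2 fold change 0.33, SE 0.102, adjusted p = 0.0272). At 600 mOsm against iso-osmolar medium its log2 fold change was -0.05, with a 95% interval from -0.27 to 0.17, and with the GC and length correction it was -0.23 and passed the test (adjusted p = 0.000561), while the change between the intensities was then 0.20. Both calls depended on single libraries. The former was lost without iso-osmolar replicate 2 (adjusted p = 0.06) or 500 mOsm replicate 3 (adjusted p = 0.0598), and the latter without 500 mOsm replicate 1 (adjusted p = 0.065) or 3 (0.105), without 600 mOsm replicate 1 (0.0577) or 3 (0.12). Its paralogue Phlda1 fell at both intensities against iso-osmolar medium, with log2 fold changes of -1.13 at 500 mOsm (adjusted p = 1.4e-06) and -1.54 at 600 mOsm (adjusted p = 1.56e-07).

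Trp53inp1, a p53 target tied to autophagy and cell death (chr4:11156431-11174379, plus strand), was at the floor like Trp53. It held 0, 0 and 2 counts in iso-osmolar medium, 0, 1 and 3 at 500 mOsm and 4, 3 and 1 at 600 mOsm. Its group sums of 2, 4 and 8 counts were too low for a test. Its paralogue Trp53inp2 held 248 to 308 counts per library and did not pass the test in any comparison.

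Cdkn1a and Mdm2 had the most similar profiles of any pair of the 8 tested genes over the 9 libraries (Pearson's r = 0.991 on log2 CPM), and Sesn1 and Phlda3 the most opposed (r = -0.801). These are descriptions over 3 groups of libraries that share their treatment, and they carry no p-value. Among 10374 genes whose average log2 CPM reached 1 or more and which are not among the 10, those closest to Cdkn1a were Mef2d (r = 0.994), Ttc28 (0.991) and Prrc2b (0.990), and those closest to Mdm2 were Kctd5 (0.994), Spry2 (0.993) and the immediate early gene Nr4a1 (0.988). For Trp53 no likeness was computed, since its counts were too low.

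Other genes known as p53 targets moved in both directions. Of 35 such genes, 32 were tested. At 500 mOsm against iso-osmolar medium 11 of them were higher and 6 lower (34.4% and 18.8%, where 13.2% and 14.8% of all genes tested were), with a median log2 fold change of 0.10. At 600 mOsm 6 rose and 9 fell (18.8% and 28.1%, where 15.1% and 20% of all genes did), with a median of -0.16. From 500 to 600 mOsm 5 rose and 9 fell (15.6% and 28.1%, where 11.9% and 17.2% of all genes did), with a median of -0.10. The 9 that fell at 600 mOsm became 5 without 600 mOsm replicate 3, and the 5 that rose between the intensities became 3 without 500 mOsm replicate 1, 600 mOsm replicate 1 or 600 mOsm replicate 3.

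The largest rise was that of Trp53cor1, the long non-coding RNA also known as lincRNA-p21, whose listed position lies 12 kb upstream of the start of Cdkn1a. It held 4, 2 and 2 counts in iso-osmolar medium, 240, 221 and 193 at 500 mOsm and 96, 103 and 84 at 600 mOsm. Per library total, the pooled counts were higher by a ratio of 74.9 at 500 mOsm (95% interval from counting alone 37.8 to 174) and of 34.3 at 600 mOsm (17.2 to 80.1), and the gene fell from 500 to 600 mOsm by 1.11 on the log2 scale (adjusted p = 0.000196). Trp53cor1 was above iso-osmolar medium at 600 mOsm, where its neighbour Cdkn1a was below it.

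Nupr1 and Gadd45a rose at 500 mOsm and fell from 500 to 600 mOsm. Nupr1, a stress-induced transcription cofactor, had log2 fold changes against iso-osmolar medium of 2.39 at 500 mOsm (adjusted p = 5.23e-09) and 0.30 at 600 mOsm (adjusted p = 0.0511), and fell by 2.08 from 500 to 600 mOsm (adjusted p = 1.55e-08). Gadd45a, a growth arrest gene, rose by 1.78 at 500 mOsm (adjusted p = 1.47e-07), was below iso-osmolar medium at 600 mOsm (-0.40, adjusted p = 0.0316) and differed by -2.18 between the intensities (adjusted p = 3.83e-08). The pro-apoptotic gene Bbc3, which encodes Puma, went the other way, with a fall at 500 mOsm (-1.41, adjusted p = 0.000347), a value of -0.19 at 600 mOsm (adjusted p = 0.508) and a rise between the intensities (1.23, adjusted p = 0.00128). Fbxw7, a ubiquitin ligase subunit that recognises cyclin E, fell at both (-1.18 at 500 mOsm, adjusted p = 3.85e-05, and -0.71 at 600 mOsm, adjusted p = 0.00164), with a rise of 0.47 between the intensities (adjusted p = 0.0307). Psrc1, which encodes a microtubule-binding protein, rose against iso-osmolar medium at 500 mOsm by 0.54 (adjusted p = 1e-04) and at 600 mOsm by 0.80 (adjusted p = 4.38e-06). Polk, a translesion DNA polymerase, fell at 600 mOsm against iso-osmolar medium by 0.56 (adjusted p = 0.0427), with groups that overlapped.

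**Figure D4:**
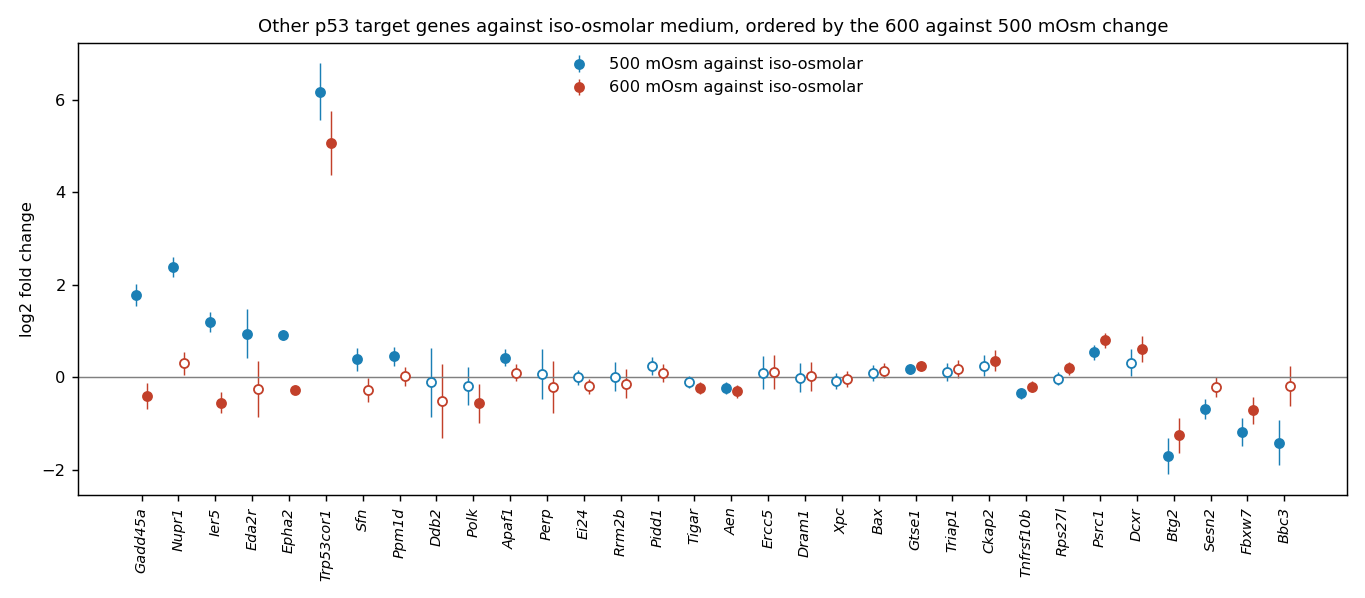
Log2 fold changes against iso-osmolar medium of the 32 tested genes of the list of other p53 targets, at 500 and at 600 mOsm with 95% intervals, ordered by their change between the intensities and filled where the adjusted p was under 0.05. Trp53cor1 stands above all others at 6.17 and 5.06. Gadd45a and Nupr1 are among several genes that passed the test as higher at 500 mOsm but not at 600 mOsm.

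All 29 genes of a list of p53 regulators and cofactors were tested. Among them 4 rose and 4 fell at 500 mOsm against iso-osmolar medium (13.8% each, against 13.2% and 14.8% of all genes). At 600 mOsm 5 rose and 10 fell (17.2% and 34.5%, against 15.1% and 20% of all genes), and from 500 to 600 mOsm 3 rose and 8 fell (10.3% and 27.6%, against 11.9% and 17.2%). The 4 that fell at 500 mOsm became 2 without iso-osmolar replicate 1, iso-osmolar replicate 3 or 500 mOsm replicate 2, and the 3 that rose between the intensities became 1 without 500 mOsm replicate 1, 500 mOsm replicate 3 or 600 mOsm replicate 1. Under the 12 alternatives that kept all libraries or thresholds aside, the former count ranged from 0 to 5 and the latter from 0 to 3. Hipk2, a kinase that phosphorylates p53, fell at 600 mOsm by 1.07 on the log2 scale against iso-osmolar medium (adjusted p = 4.15e-07) and fell by 0.86 against 500 mOsm (adjusted p = 3.14e-06). Trp53bp2, a p53-binding protein, fell at 600 mOsm against iso-osmolar medium by 0.92 (adjusted p = 1.47e-05). Crebbp, an acetyltransferase that serves p53 and many other factors, fell by 0.91 from 500 to 600 mOsm (adjusted p = 3.08e-06). Prkdc, the catalytic subunit of DNA-dependent protein kinase, rose at 500 mOsm by 0.95 (adjusted p = 0.00307), as did the phosphatase gene Ppm1d by 0.46 (adjusted p = 0.00246), which is a p53 target as well. Ppp1r13b, whose product binds p53, fell at 500 mOsm by 0.52 (adjusted p = 0.0015), and Usp10, a deubiquitinase that acts on p53, fell by 0.27 (adjusted p = 0.000947) and rose by 0.16 from 500 to 600 mOsm (adjusted p = 0.0286). The checkpoint kinase gene Chek2 rose at 600 mOsm by 0.36 against iso-osmolar medium (adjusted p = 0.0142). The ribosomal protein gene Rpl5, whose product can bind Mdm2, rose by 0.28 in the same comparison (adjusted p = 0.000422) and by 0.19 from 500 to 600 mOsm (adjusted p = 0.00666).

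Cyclins and cyclin-dependent kinases that p21 binds, with PCNA, made a list of 11 genes, all tested. Of these 0 rose and 4 fell at 500 mOsm against iso-osmolar medium, 1 rose and 4 fell at 600 mOsm, and 3 rose and 0 fell from 500 to 600 mOsm. These are 0% and 36.4%, 9.09% and 36.4%, and 27.3% and 0% of the list, beside 13.2% and 14.8%, 15.1% and 20%, and 11.9% and 17.2% of all genes tested. The 4 that fell at 600 mOsm became 2 without 600 mOsm replicate 3, and the 1 that rose there became 2 without iso-osmolar replicate 1 or 500 mOsm replicate 3. Where the count was 0, edgeR at an unadjusted p under 0.05 gave 1 higher gene at 500 mOsm and 0 lower genes between the intensities, DESeq2 gave 0 in both cases, and the GC and length correction gave 2 higher genes at 500 mOsm. Ccne1, cyclin E1, fell at 500 mOsm by 1.08 on the log2 scale (adjusted p = 8.89e-08) and less at 600 mOsm, by 0.44 (adjusted p = 0.000189), so that it was higher at 600 than at 500 mOsm by 0.64 (adjusted p = 1.12e-05). Ccne2 fell at 500 mOsm by 0.70 (adjusted p = 0.00612) and was higher by 0.72 at 600 than at 500 mOsm (adjusted p = 0.00583). Cdk1, the mitotic kinase, rose at 600 mOsm by 0.44 (adjusted p = 2.92e-05), and Cdk6 fell by 0.28 (adjusted p = 0.00277). Cdk6 was lower at 500 mOsm as well, by 0.21 (adjusted p = 0.0161). The level of Pcna differed from iso-osmolar medium by a log2 fold change of -0.01 at 500 mOsm (adjusted p = 0.91). Among the 13 tested paralogues of the 10 genes, 3 rose and 2 fell at 500 mOsm, 2 rose and 2 fell at 600 mOsm against iso-osmolar medium, and 1 rose and 3 fell between the intensities. These are 23.1% and 15.4%, 15.4% and 15.4%, and 7.69% and 23.1% of the list, beside the same shares of all genes. The 2 that rose at 600 mOsm became 1 with any of the 9 libraries left out, and one of the 2, the zinc finger gene Zmat5, had a log2 fold change of 0.26 (adjusted p = 0.0496). Without 500 mOsm replicate 2, the 1 that rose between the intensities became 2.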

How the data were processed

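Libraries of poly-A RNA from MEFs were sequenced as paired-end reads, cleaned of adapter and low-quality reads and aligned to mm10. The submitters' processing notes name CASAVA 1.8 and STAR, and the counting tool and its strand setting are not given in the sources used here. The authors deposited a table of unnormalized read counts per gene and library, and of FPKM computed from these counts and the listed gene length. Its columns of fold changes and p-values were not used.

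Counts were scaled by TMM and tested by edgeR 4.0.16 (quasi-likelihood F test, R 4.3.3) with all 9 libraries in one fit and the treatment as the factor, after filterByExpr, which kept 13082 genes. Benjamini-Hochberg adjustment ran over these genes, with 0.05 as the threshold. The SE of a log2 fold change is its size over the square root of F. The steps were tested on counts drawn from known values. Of 200 genes given a change at 500 mOsm, 182 were recovered, and 16 unchanged genes were called as well. With no change simulated, 0 genes were called.

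The 10 genes and the gene lists were chosen with earlier results of these data known. From each list the text names, per comparison, up to 2 called genes per direction with the largest log2 fold change and an average log2 CPM of at least 1. Some of the paralogues, overlapping genes and, for Cdkn1a and Mdm2, the 3 genes outside the 10 with the highest Pearson's r were named too. Trp53-ps, Cdkn2a, Pcna and the genes around Trp53 were named after their values were seen. Gadd45a, Nupr1, Trp53cor1, Bbc3, Fbxw7, Psrc1 and Cdk6 are followed through further comparisons once named.

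Alternatives were RLE factors or library size alone, no filter or at least 10 counts in every library, DESeq2 1.42.0, limma 3.58.1 on log2(FPKM + 1) or log2(FPKM + 0.1), a replicate block, a fit of the 2 groups of a comparison, an adjusted p under 0.01, a minimum absolute log2 fold change of 1, and leaving out each library. A loess correction for GC content and gene length in each library was added after the data were seen. Positions were those of the table, and 5 of the 10 were identical in GENCODE M21, with the others within 639 bases.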

Additional observations from a re-analysis of the deposited data

How the results depend on the processing

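Over 24 fold changes of the 8 tested genes, each set against 21 alternatives, 471 of 504 values kept their direction and their side of the threshold, 22 kept the direction and lost the call, 5 gained it and 6 changed sign. The stricter adjusted p and the minimum fold change reused the main fit, so that there a call could be lost but no sign could change. They gave most of the lost calls. The sign changes were all in values that had not passed the test: corrected for GC content and length, Plk2 at 500 mOsm against iso-osmolar medium (0.0097) and Mdm4 between 600 and 500 mOsm (0.076), and with 1 library left out, Ccng1 (-0.00035 to 0.186) and Plk2 (-0.051 to 0.0035) at 500 mOsm and Phlda3 at 600 mOsm (-0.157 to 0.0387, above 0 without iso-osmolar replicate 2, at 0.033, or 600 mOsm replicate 2) against iso-osmolar medium. At an adjusted p under 0.01, 1 of the 8 genes was lower at 500 mOsm and 0 were higher between 600 and 500 mOsm. A minimum absolute log2 fold change of 1 left 1 higher and 0 lower at 500 mOsm, 1 lower at 600 mOsm, and 0 higher and 1 lower between the intensities. Higher genes at 600 mOsm against iso-osmolar medium numbered 1 without a filter (Ccng1, adjusted p = 0.0499) and 2 with the GC and length correction (Ccng1 and Sesn1), where the cause was not tested. With 1 library left out at a time, lower genes at 500 mOsm numbered 1 to 2, higher genes at 600 mOsm 0 to 1 and higher genes between the intensities 0 to 1. With a replicate block, 0 genes were higher between the intensities, since Phlda3 no longer passed (0.34, adjusted p = 0.0605), and no other call among the 8 changed. The replicate numbers gave no sign of a pairing of libraries. Deviations of same-numbered libraries correlated across genes at r = -0.198 on average (9 pairs, -0.535 to 0.45), and those with other numbers with 0.101 (18 pairs). Deviations within a group sum to 0, so these averages depend on each other and cannot settle whether libraries were paired. Of 504 recomputed counts over the 4 gene lists, 66 moved by more than 1.5 times or to or from 0, and 438 did not. Of the 12 alternatives other than leaving out a library, 6 moved the count of p53 regulators lower at 500 mOsm. As many moved that of paralogues higher at 600 mOsm against iso-osmolar medium. Regulators higher between the intensities, and genes of the p21-bound list higher at 600 mOsm against iso-osmolar medium, moved in 4 each. Trp53 and Trp53inp1 held too few counts for a test, so that a change in them could not be measured.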
